A study of Mus musculus with 8 samples.

Results

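The lysosomal genes of rib chondrocytes were compared between mice with and without the *Mir140* locus. The 46 genes encode 10 cathepsins, 17 other hydrolases or their activators, 4 lysosomal membrane proteins, the transcription factors *Tfeb* and *Tfe3*, and 13 subunits of the vacuolar proton pump (V-ATPase). They were chosen by name as core genes of the lysosome and found by symbol among the 52325 Ensembl genes of the deposited values.

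RNA-seq was done on costal (rib) chondrocytes, released from cartilage with collagenase, of 7-day-old mice. There were 4 libraries labelled WT and 4 labelled *Mir140*-null, and neither group received a treatment. The null allele was made with CRISPR/Cas9 in zygotes of mixed C57BL/6 and CBA/ca background and lacks the *Mir140* locus. Both lines descend from matings between heterozygotes, after the founders had been bred onto C57BL/6J. The WT and null mice came from separate lines, so genotype and line cannot be told apart. The values are TPM, transcript abundances corrected for transcript length that add to the same total in each library, and the exact depth behind each value is unknown. The labels do not say which animal each library came from, so p-values measure the spread between these libraries, which may be technical.

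Lysosomes break down proteins, glycans and lipids that arrive by endocytosis and autophagy, with hydrolases that work at the acid pH kept by the V-ATPase. TFEB and TFE3 raise the transcription of many lysosomal genes through E-box sequences in their promoters when nutrient signaling through mTOR falls. In cartilage, lysosomal enzymes degrade the glycosaminoglycans of aggrecan and other matrix molecules, and inherited loss of several of them causes skeletal disease.

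*Mir140* gives rise to miR-140-5p and miR-140-3p. The null animals lack both. The mature miR-140-5p was not in the reference used here, so its sequence is not shown and its matches were not searched. The mature miR-140-3p is shown with its seed (bases 2 to 8) in capitals, from RefSeq on GRCm38.p6 (chr8:107551288-107551308, plus strand).
miR-140-3p: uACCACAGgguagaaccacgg
The form with this seed is named miR-140-3p.2, and a form that starts 1 base later, miR-140-3p.1, uses the bases 3 to 9 of the printed sequence (CCACAGG). The 7-base match to the printed seed, CTGTGGT, was found in the longest annotated 3'UTR of 13 of the 45 members that were tested (28.9%), against 19.0% of the 12988 tested genes with a 3'UTR. The match to the shifted seed, CCTGTGG, which overlaps the former where a C precedes it, was also found in 13 members (28.9%), against 20.2% of the tested genes. The median 3'UTR was shorter in the members than in the tested genes, where it was 1159 bases long. Of the 4 members called below, *Ctsd*, *Neu1* and *Man2b1* held CTGTGGT, and these sites are shown with the match in capitals (GENCODE M21 transcripts on GRCm38, each 5′ to 3′ on the gene's strand). *Ctsd* lies on the minus strand (chr7:142376393-142376422), *Neu1* on the plus strand (chr17:34935324-34935353) and *Man2b1* on the plus strand (chr8:85098157-85098186).
*Ctsd*: gctgttctgttCTGTGGTtcctcaccctgg
*Neu1*: gtttgtggagtCTGTGGTtctgtctgctca
*Man2b1*: gcttccagcacCTGTGGTaggtggctcatc
*Neu1* and *Man2b1* also held CCTGTGG, and *Ctsl* held neither CTGTGGT nor CCTGTGG in its 3'UTR. The median log2 fold change was -0.12 for the members with CTGTGGT and 0.03 for those without, and -0.10 and 0.03 for CCTGTGG. All tested genes with CTGTGGT and with CCTGTGG had medians of 0.09 and 0.08. No median was taken for tested genes without a match, and that of tested genes with a mean of at least 5 TPM was 0.11. A match is a description of letters and not a shown site of action.

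RefSeq promoters on GRCm38.p6, from 250 bases before to 50 bases after the RefSeq start of each gene, were matched by symbol for 38 of the 46 members, all but *Ctsb*, *Ctsh*, *Galns*, *Asah1*, *Atp6v1b2*, *Atp6v1c1*, *Atp6v1g1* and *Atp6v1h*. The E-box CACGTG, which reads alike on both strands, was present in 15 of the 38 (39.5%), against 8.09% of all 27025 symbols in the table. The extended word TCACGTG, searched on both strands, was present in 13 members (34.2%) and in 4.29% of all symbols. Its palindrome TCACGTGA, which contains both shorter words, was present in 7 members (18.4%) and in 1.12% of all symbols. The stretches of 30 bases around the word are shown, with the word in capitals, for these 7 members and for *Ctsl*, which holds the 6-base word. Where a promoter holds TCACGTGA at more than 1 place (*Ctsa* and *Gla*), the copy nearest the RefSeq start is shown. The RefSeq starts differ from the outer limits of the genes in GENCODE, and the words shown for *Ctsl*, *Ctsd*, *Ctsa*, *Mcoln1*, *Atp6v0e* and *Atp6v1a* lie inside those limits.
*Ctsl* (chr13:64370739-64370768, minus strand): ggcgttagaagcCACGTGctgatctaaatt
*Ctsd* (chr7:142387908-142387937, minus strand): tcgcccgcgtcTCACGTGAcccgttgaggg
*Ctsa* (chr2:164833766-164833795, plus strand): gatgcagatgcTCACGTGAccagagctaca
*Gla* (chrX:134601182-134601211, minus strand): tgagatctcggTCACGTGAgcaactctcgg
*Mcoln1* (chr8:3500462-3500491, plus strand): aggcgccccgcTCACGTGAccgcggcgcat
*Atp6v0d1* (chr8:105566050-105566079, minus strand): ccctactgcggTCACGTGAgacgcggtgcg
*Atp6v0e* (chr17:26676387-26676416, plus strand): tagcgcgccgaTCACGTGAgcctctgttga
*Atp6v1a* (chr16:44139373-44139402, minus strand): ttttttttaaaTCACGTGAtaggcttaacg
The word was spread over the classes, with CACGTG in 4 of 8 matched cathepsins, 5 of 15 hydrolases, 2 of 4 membrane proteins, neither of the 2 transcription factors and 4 of 9 V-ATPase subunits.

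Libraries were checked before genotypes were compared. *Mir140* itself was listed at 0 TPM in all 4 WT libraries and in 3 of the 4 null libraries, while the library labelled *Mir140*-null replicate 2 held 8.865 TPM. Since WT libraries are at 0, this poly(A) measurement cannot check the genotypes, and the groups rest on the labels. The animals were genotyped in the study by PCR on ear tissue and Sanger sequencing. Mitochondrial genes held 4.06% to 6.98% of the TPM in WT and 8.41% to 10.1% in null libraries, higher in every null library. At least 0.5 TPM was reached by 17128, 17950, 17826 and 17766 genes in WT and by 15800, 16056, 17435 and 16991 genes in null replicates 1 to 4, fewest in null replicates 1 and 2. Chondrocyte markers were abundant everywhere: the 10 markers of the list summed to 57388.7 to 72608.4 TPM in WT and 42061.5 to 57805.3 TPM in null libraries, and *Col2a1* was the most abundant of them. *Acan* was called higher and *Col9a1*, *Col11a1* and *Hapln1* were called lower in the null libraries.

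The libraries labelled *Mir140*-null replicates 1 and 2 stood apart from the other 6 in markers of several cell types, among them fibroblasts and perichondrium. The 6 markers of that list summed to 5500.8, 3075.7, 5886.5 and 3268.4 TPM in WT replicates 1 to 4, and to 584.8, 738.8, 5249.5 and 3822.0 TPM in null replicates 1 to 4. *Col1a2* was the most abundant of the list on average, and *Col1a1* was at 47.9 and 50.1 TPM in null replicates 1 and 2 against 792.6 to 1543.9 TPM in the other 6 libraries. *Pdgfra* did not follow this sum, at 34.5, 36.5, 31.5 and 34.3 TPM in null replicates 1 to 4 against 11.8 to 19.8 TPM in WT. Of the 6 markers, it was called higher in the null libraries and no other was called. Null replicates 1 and 2 were also the lowest libraries for the sum of 5 osteoblast markers (3.97 and 3.02 TPM, against 9.42 to 16.9 TPM in the other 6) and of 4 red cell markers (309.5 and 168.0 TPM, against 403.3 to 1150.5 TPM). In bulk RNA, fewer cells of a type and less RNA per cell cannot be told apart. Log2 fold changes are therefore also given without these libraries for the called members and called pathway genes and for most of the other members with values per library, an alternative chosen after seeing the data, and the part of these cells in any result was not tested.

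Of the 46 members, 45 passed the filter of 0.5 TPM in at least 4 libraries and were tested, and *Ctss*, a cathepsin of antigen-presenting cells, stayed at or under 0.197 TPM in every library. At an adjusted p under 0.05 in limma, 4 of the 45 were called (8.89%), against 16.9% of the 17177 genes tested. The cathepsins *Ctsl* and *Ctsd* and the mannosidase *Man2b1* were called higher in the null libraries, 3 of 45 against 10.5% of all genes, and the sialidase *Neu1* was called lower, 1 of 45 against 6.40% of all genes. The share of calls among the members thus lay under that of all genes, and it did so under most alternatives. Without null replicates 1 and 2 it lay above (6.67% of members, 3.76% of all genes). With no filter (4.35% and 4.14%) and median-ratio scaling (15.6% and 16.1%) it was close. The median of the mean TPM was 32.3 for the members and 6.41 for all genes tested. Of the tested genes with a mean of at least 5 TPM, 21.1% were called. The median log2 fold change of the members was -0.02, beside -0.01 for all genes tested. With 27 of 45 tested members (60.0%) within 0.25 of 0 on the log2 scale, against 40.7% of all genes, most log2 fold changes were small. Genotypes did not overlap in TPM for 6 members, *Ctsl*, *Ctsd*, *Man2b1* and *Asah1* (null higher) and *Neu1* and *Atp6v0d1* (null lower), against 25.9% of all genes.

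Calls over all genes fell to the higher side in 62.0% of cases, and under median-ratio scaling in 46.9%. *Ctsl*, *Ctsd*, *Man2b1* and *Neu1* were called in the same direction under that scaling. Without the libraries labelled null replicates 1 and 2, 3.76% of the genes tested were called, and *Ctsl*, *Ctsd* and *Man2b1* were still called higher. In 27 of the 45 tested members (60.0%) null replicates 1 and 2 were the lowest of the null group, against 37.6% of all genes tested, and in 2 members (4.44%) they were the highest, against 19.0%. The median deviation of the members from the WT mean was -0.18, -0.10, 0.13 and 0.11 (log2) in null replicates 1 to 4, beside -0.09, -0.05, 0.11 and 0.05 for all genes tested, which were low and high in the same libraries.

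**Figure D1:**
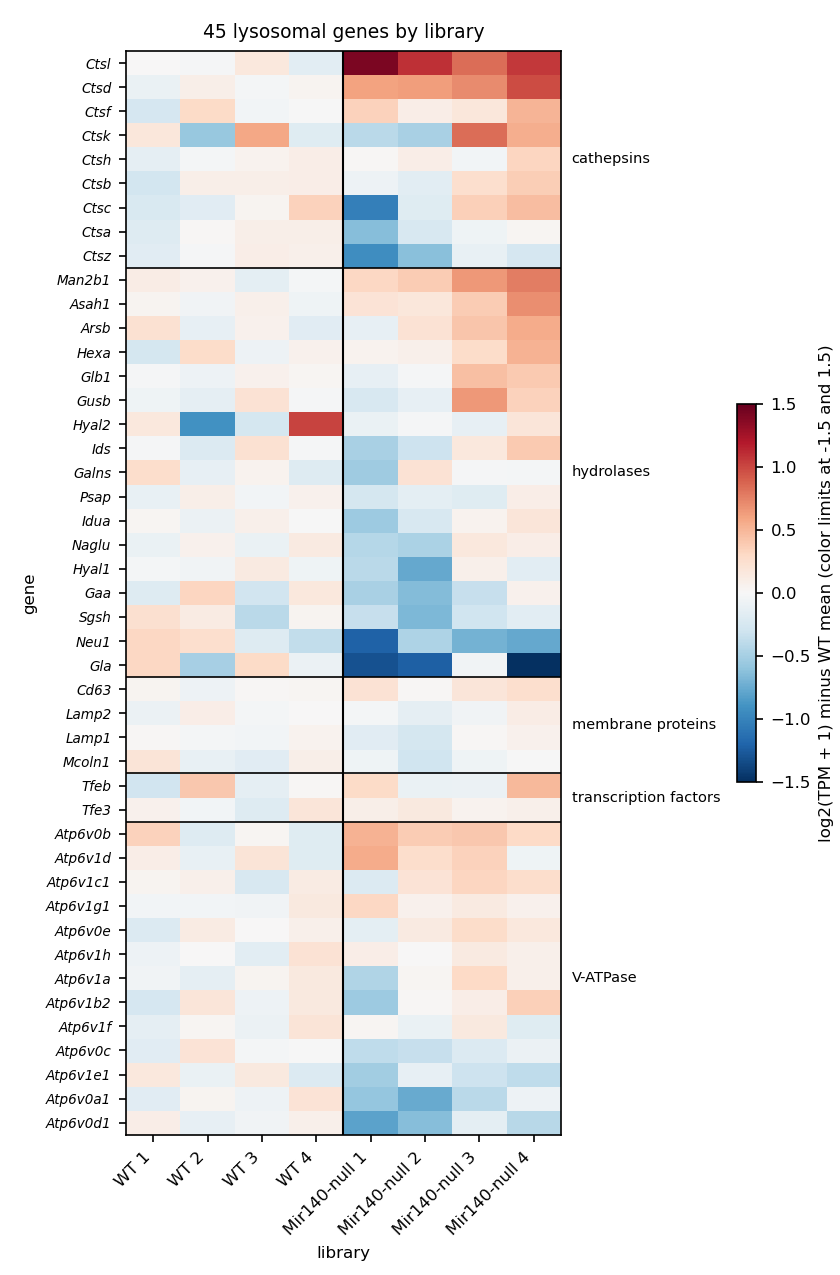
Heat map of the 45 tested lysosomal genes (rows, by class) in the 8 libraries (columns), as log2(TPM + 1) minus the mean of the WT libraries, with colors limited at -1.5 and 1.5. *Ctsl* and *Ctsd* are above the WT mean in all 4 null libraries, while the hydrolases *Glb1*, *Gusb*, *Idua*, *Ids* and *Naglu* are below it in null replicates 1 and 2 and above it in null replicates 3 and 4.

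The cathepsins are the proteases of the lysosome. *Ctsl*, a cysteine protease that cleaves collagen and elastin fragments among many substrates, lies on chromosome 13 (mm10 64359337 to 64370890). It was measured at 179.8, 177.2, 200.3 and 160.5 TPM in WT replicates 1 to 4 and at 479.1, 384.1, 320.8 and 374.0 TPM in null replicates 1 to 4. Every null library was above every WT library, and null replicate 1 was the highest. The mean was 179.5 ± 16.3 TPM in WT and 389.5 ± 65.9 TPM in null libraries (SD, n = 4), and the log2 fold change was 1.10 on the log2(TPM + 1) scale (95% CI 0.80 to 1.41, limma with Benjamini-Hochberg adjusted p = 0.00546). It was the highest log2 fold change of the 45 tested members. Without null replicates 1 and 2 it was 0.95 (limma with Benjamini-Hochberg adjusted p = 0.0280). The pseudogene *Gm49230* lies within the *Ctsl* locus on the same strand and stayed at or under 1.73 TPM in each library.

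*Ctsd*, the main aspartic protease of lysosomes, lies on chromosome 7 (mm10 142375911 to 142388038). It was measured at 94.4, 107.7, 99.9 and 104.8 TPM in WT and at 155.3, 156.8, 166.6 and 200.8 TPM in null replicates 1 to 4. The groups did not overlap, and null replicate 4 was the highest. The mean rose from 101.7 ± 5.83 to 169.9 ± 21.2 TPM (SD, n = 4), with a log2 fold change of 0.73 (95% CI 0.48 to 0.97, limma with Benjamini-Hochberg adjusted p = 0.00801). *Ctsd* overlaps *Gm49369* on the same strand, so its own level is uncertain. *Gm49369* was at 63.8 to 65.4 TPM in WT and at 66.6, 72.4, 89.3 and 104.6 TPM in null replicates 1 to 4. With the TPM of both genes summed, an alternative added after seeing the data, the levels were 158.5 to 173.0 TPM in WT and 222.0 to 305.4 TPM in null libraries, and the log2 fold change was 0.59 (limma with Benjamini-Hochberg adjusted p = 0.0155). Without null replicates 1 and 2, *Ctsd* alone had a log2 fold change of 0.84 (limma with Benjamini-Hochberg adjusted p = 0.0317).

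The other 7 tested cathepsins were not called. *Ctsk*, the collagen-degrading protease of osteoclasts, was measured at 32.8, 19.3, 43.7 and 25.3 TPM in WT and at 21.6, 20.4, 52.4 and 42.8 TPM in null replicates 1 to 4. The groups overlapped throughout, and the low null libraries were replicates 1 and 2, those with the lowest sums of fibroblast and osteoclast markers. Its log2 fold change was 0.12 with a wide interval (95% CI -0.71 to 0.95), and it turned to -0.07, -0.11 and -0.02 without WT replicate 2, null replicate 3 or null replicate 4. Without null replicates 1 and 2 it was 0.69 (limma with Benjamini-Hochberg adjusted p = 0.234). *Ctsb*, a cysteine protease, was at 159.4 ± 19.2 TPM in WT and 171.2 ± 30.1 TPM in null libraries (SD, n = 4). *Ctsz*, a carboxypeptidase, was at 44.97 ± 3.86 and 32.7 ± 8.44 TPM (SD, n = 4), with a log2 fold change of -0.48 (limma with Benjamini-Hochberg adjusted p = 0.110), and it was called lower under median-ratio scaling and with 1 factor from residuals. The remaining tested cathepsins *Ctsa*, *Ctsc*, *Ctsf* and *Ctsh* had log2 fold changes of -0.23, -0.10, 0.28 and 0.10.

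Summed over the 10 cathepsins, the level was 598.2, 666.6, 704.2 and 655.3 TPM in WT and 956.1, 865.6, 912.1 and 1027.9 TPM in null replicates 1 to 4. Every null library was above every WT library, and the mean rose from 656.1 ± 43.9 to 940.4 ± 69.0 TPM (SD, n = 4), 1.43 times the WT mean. The other 8 cathepsins without *Ctsl* and *Ctsd* summed to 324.0, 381.7, 404.0 and 390.0 TPM in WT and 321.6, 324.7, 424.7 and 453.1 TPM in null replicates 1 to 4. Null replicates 1 and 2 were at the low end of WT and null replicates 3 and 4 above all WT libraries, so the means were close, at 374.9 ± 35.2 and 381.0 ± 67.9 TPM (SD, n = 4). *Ctsl* made up 30.1%, 26.6%, 28.4% and 24.5% of the cathepsin TPM in WT and 50.1%, 44.4%, 35.2% and 36.4% in null replicates 1 to 4. These shares did not overlap.

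**Figure D2:**
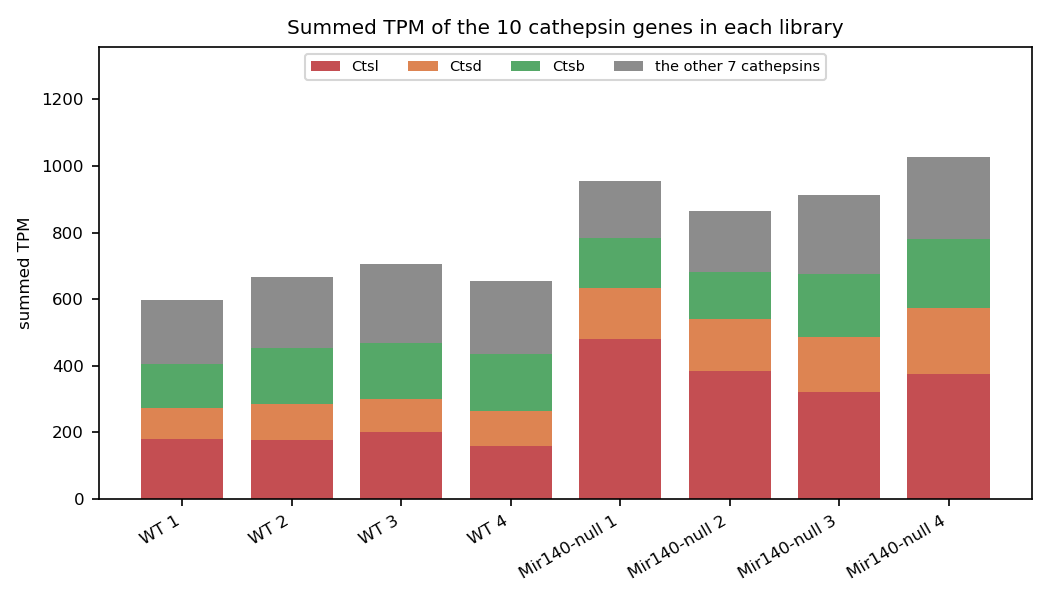
Stacked bars of the summed TPM of the 10 cathepsin genes in each library, split into *Ctsl*, *Ctsd*, *Ctsb* and the other 7. The WT bars reach 598.2 to 704.2 TPM and the null bars 865.6 to 1027.9 TPM, and the *Ctsl* segment is taller in every null bar.

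Macrophages and osteoclasts are rich in cathepsins, and their markers were examined beside these values. The 12 macrophage markers summed to 23.1, 42.2, 36.3 and 33.6 TPM in WT and 18.7, 18.9, 32.5 and 32.6 TPM in null replicates 1 to 4. Most of this was *Cd68* (15.98 to 36.99 TPM), itself a lysosomal protein. Of the list, 7 markers (*Ptprc*, *Adgre1*, *C1qa*, *C1qb*, *C1qc*, *Fcer1g* and *Mrc1*) were under 1 TPM in every library, and *Lyz2* was called lower in the null libraries. The 8 osteoclast markers summed to 35.6, 45.1, 38.1 and 36.0 TPM in WT and 15.4, 20.9, 36.6 and 47.2 TPM in null replicates 1 to 4, with *Mmp9* the most abundant on average over all libraries. *Ocstamp*, *Dcstamp*, *Calcr* and *Oscar* were under 1 TPM in every library, and *Itgb3* was called higher in the null libraries. The macrophage sum and the osteoclast sum were lowest in null replicates 1 and 2. The 6 neutrophil markers summed to 1.62 to 5.90 TPM in WT and 6.80 to 10.3 TPM in null libraries, and of these *Camp* was called higher. The part of these cells in the cathepsin values was not tested.

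The 17 hydrolases degrade glycosaminoglycans, other glycans and lipids. They held 2 called genes (11.8%, against 16.9% of all genes), 1 in each direction. Their median log2 fold change was -0.09, with 6 members above 0 and 11 below. *Man2b1*, the alpha-mannosidase that trims N-glycans, lies on chromosome 8 (mm10 85083270 to 85098282). It was measured at 10.8, 10.4, 8.86 and 9.75 TPM in WT and at 12.5, 13.3, 16.2 and 17.7 TPM in null replicates 1 to 4. All null libraries were above all WT libraries, and null replicates 3 and 4 were the highest. The mean rose from 9.96 ± 0.858 to 14.9 ± 2.40 TPM (SD, n = 4), with a log2 fold change of 0.53 (95% CI 0.21 to 0.85, limma with Benjamini-Hochberg adjusted p = 0.0368). The call was lost when any 1 library other than null replicate 1 was left out (limma with Benjamini-Hochberg adjusted p of 0.0603 to 0.0956) and held without null replicates 1 and 2 together (log2 fold change 0.71, limma with Benjamini-Hochberg adjusted p = 0.0453).

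*Neu1*, the sialidase that removes sialic acid from glycoproteins, lies on chromosome 17 (mm10 34931253 to 34935953). It was measured at 17.97, 17.2, 12.4 and 10.9 TPM in WT and at 5.61, 10.2, 8.35 and 8.03 TPM in null replicates 1 to 4. The groups did not overlap, but WT replicate 4 and null replicate 2 lay within 1 TPM of each other. The mean fell from 14.6 ± 3.49 to 8.03 ± 1.87 TPM (SD, n = 4), with a log2 fold change of -0.79 (95% CI -1.28 to -0.29, limma with Benjamini-Hochberg adjusted p = 0.0414). The call did not survive the omission of any single library (limma with Benjamini-Hochberg adjusted p of 0.0519 to 0.0944). Without null replicates 1 and 2 the log2 fold change was -0.74 (limma with Benjamini-Hochberg adjusted p = 0.113).

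*Gla*, the alpha-galactosidase that clears globotriaosylceramide, had the lowest log2 fold change of the 45 tested members and was not called. It was measured at 15.8, 8.56, 15.5 and 11.7 TPM in WT and at 4.49, 4.81, 12.1 and 2.57 TPM in null replicates 1 to 4. Null replicate 3 lay among the WT libraries and the other 3 null libraries lay below all of them. The log2 fold change was -1.13 (95% CI -2.01 to -0.25, limma with Benjamini-Hochberg adjusted p = 0.0773), and it ranged from -1.48 without null replicate 3 (limma with Benjamini-Hochberg adjusted p = 0.0179) to -0.86 without null replicate 4 (0.136). It passed the threshold in 1 of 17 alternatives, and without null replicates 1 and 2 it was -0.99 (limma with Benjamini-Hochberg adjusted p = 0.295). *Gaa*, the acid alpha-glucosidase of glycogen breakdown, had the highest mean TPM of the class. It was measured at 314.0, 450.5, 294.4 and 399.5 TPM in WT and at 255.1, 227.5, 282.6 and 374.3 TPM in null replicates 1 to 4. The 3 lowest null libraries were below all WT libraries and the highest was among them, and the log2 fold change of -0.36 was not called (limma with Benjamini-Hochberg adjusted p = 0.226) and was -0.14 without null replicates 1 and 2.

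The other 13 hydrolases were not called. *Psap*, the precursor of the saposins that present lipids to hydrolases, was at 307.9 ± 19.9 TPM in WT and 283.3 ± 32.8 TPM in null libraries (SD, n = 4). *Asah1*, the acid ceramidase, was at 36.5, 34.2, 37.5 and 33.8 TPM in WT and 41.0, 40.1, 46.7 and 57.9 TPM in null replicates 1 to 4, without overlap. Its log2 fold change of 0.36 missed the threshold (limma with Benjamini-Hochberg adjusted p = 0.0914). It was called higher with 1 factor from residuals and with sample weights. The enzymes of glycosaminoglycan breakdown, *Hexa*, *Glb1*, *Gusb*, *Idua*, *Ids*, *Sgsh*, *Naglu*, *Galns*, *Arsb*, *Hyal1* and *Hyal2*, were all among the genes not called, with log2 fold changes from -0.37 (*Sgsh*) to 0.27 (*Arsb*). Their levels ran from *Sgsh*, at 1.02 ± 0.363 TPM in WT and 0.557 ± 0.226 TPM in null libraries, to *Hexa*, at 90.0 ± 14.2 and 105.9 ± 16.4 TPM (SD, n = 4). *Hyal1* overlaps *Naa80* on the same strand, so its own level is less certain. Summed over the class, the hydrolases were at 892.6 ± 97.7 TPM in WT and 806.3 ± 129.9 TPM in null libraries (SD, n = 4), a difference within the SD of either group.

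**Figure D3:**
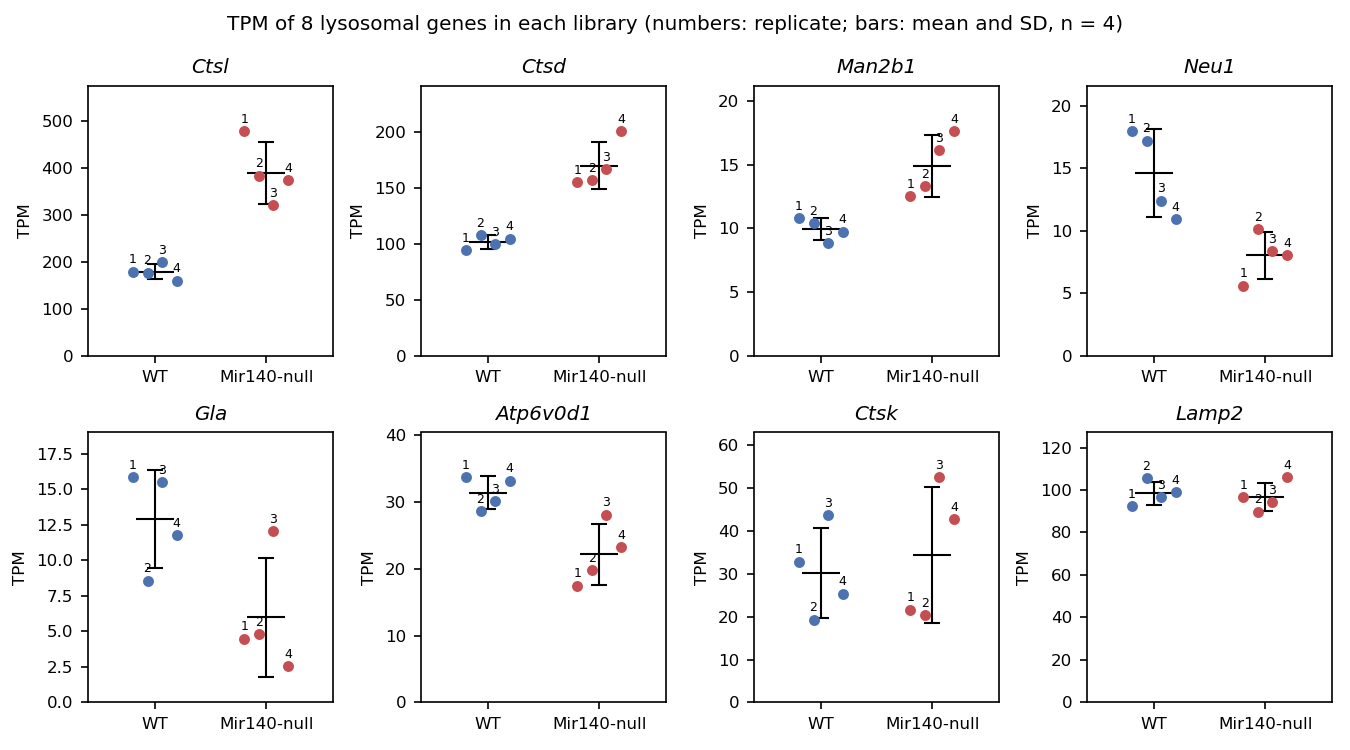
TPM of 8 lysosomal genes in each library, with the replicate number above each point and bars for the mean and SD (n = 4). The genotypes are apart for *Ctsl*, *Ctsd*, *Man2b1*, *Neu1* and *Atp6v0d1*, and overlap for *Gla*, *Ctsk* and *Lamp2*.

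None of the 4 lysosomal membrane proteins was called (limma, 0 with an unadjusted p under 0.05). Over all genes tested, 16.9% were called and 33.9% had an unadjusted p under 0.05 in limma, so 0 of 4 says little. *Cd63*, a tetraspanin of late endosomes, was measured at 302.7, 278.5, 296.9 and 300.5 TPM in WT and at 342.5, 298.4, 333.6 and 349.6 TPM in null replicates 1 to 4. Null replicate 2 lay among the WT libraries and the other 3 null libraries above them, with a log2 fold change of 0.17 (limma with Benjamini-Hochberg adjusted p = 0.203), and of 0.21 without null replicates 1 and 2. *Lamp2* encodes a heavily glycosylated protein of the lysosomal membrane. It is the member on the study's list of miR-140-5p targets, which was predicted for human genes. Its levels were 92.5, 105.6, 96.6 and 99.0 TPM in WT and 96.7, 89.8, 94.4 and 105.9 TPM in null replicates 1 to 4. The groups covered the same range, and the log2 fold change was -0.03 (95% CI -0.23 to 0.18, limma with Benjamini-Hochberg adjusted p = 0.861), and 0.02 without null replicates 1 and 2. The interval leaves room for a change of up to 0.23 on the log2 scale. *Lamp1* and the calcium channel *Mcoln1* had log2 fold changes of -0.09 and -0.11. The 4 genes summed to 541.0 ± 11.2 TPM in WT and 567.0 ± 41.2 TPM in null libraries (SD, n = 4).

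Neither transcription factor of the lysosomal program was called (limma, 0 of 2 with an unadjusted p under 0.05). With 16.9% of all genes called and 33.9% at an unadjusted p under 0.05 in limma, 0 of 2 says little. *Tfeb* was measured at 20.5, 33.7, 22.9 and 25.7 TPM in WT and at 31.1, 23.5, 23.8 and 35.7 TPM in null replicates 1 to 4. The libraries of both groups were interleaved, and the log2 fold change was 0.15 (95% CI -0.30 to 0.59), and 0.20 without null replicates 1 and 2. *Tfe3* was measured at 54.3, 50.4, 45.3 and 58.9 TPM in WT and at 55.2, 57.7, 54.2 and 54.9 TPM in null replicates 1 to 4. The null libraries lay within the WT range, with a log2 fold change of 0.09 (95% CI -0.14 to 0.33), and of 0.07 without null replicates 1 and 2. These are RNA levels, and both factors are mainly controlled by phosphorylation and nuclear entry, which RNA-seq does not measure. Among the members with CACGTG in the promoters shown above, 6 had a log2 fold change above 0 and 9 below, with a median of -0.09, beside -0.03 for the 22 tested members without the word. The called genes fell on both sides, *Ctsl* and *Ctsd* with the word and *Neu1* and *Man2b1* without it.

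The V-ATPase pumps protons into the lysosome through a membrane sector (V0) that is driven by a cytosolic ATPase sector (V1). None of the 13 subunits was called (limma, 4 with an unadjusted p under 0.05, which were *Atp6v0a1*, *Atp6v0b*, *Atp6v0d1* and *Atp6v1e1*, or 30.8%, beside 33.9% of all genes tested), and their median log2 fold change was -0.01. *Atp6v0c*, the proteolipid of the rotating ring, was measured at 230.8, 299.0, 253.2 and 258.3 TPM in WT and at 198.4, 204.4, 224.4 and 244.5 TPM in null replicates 1 to 4. Null replicate 4 was the 1 null library inside the WT range, and the log2 fold change was -0.25 (limma with Benjamini-Hochberg adjusted p = 0.149), and -0.15 without null replicates 1 and 2. Its pseudogene *Atp6v0c-ps2* was listed at 0 to 3.48 TPM. *Atp6v0d1*, the subunit that couples the ring to the stalk, was measured at 33.7, 28.6, 30.1 and 33.2 TPM in WT and at 17.5, 19.8, 28.1 and 23.3 TPM in null replicates 1 to 4. All null libraries were below all WT libraries, although null replicate 3 and WT replicate 2 were within 1 TPM. The log2 fold change of -0.50 just missed the threshold (95% CI -0.85 to -0.15, limma with Benjamini-Hochberg adjusted p = 0.0566), and without null replicates 1 and 2 it was -0.28.

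Among the other V0 subunits, the log2 fold change of *Atp6v0a1*, the large subunit of the proton path, was -0.45, that of *Atp6v0b*, another ring proteolipid, was 0.40, and that of *Atp6v0e* was 0.11. *Atp6v0a1* was at 31.2 ± 3.69 TPM in WT and 22.8 ± 4.86 TPM in null libraries and *Atp6v0b* at 78.1 ± 14.3 and 102.3 ± 6.57 TPM (SD, n = 4), with limma and Benjamini-Hochberg adjusted p of 0.0898 and 0.0738. *Atp6v0a1* and *Atp6v0d1* were called lower under median-ratio scaling and with 1 factor from residuals, *Atp6v0d1* also at a mean of at least 5 TPM, and *Atp6v0b* was called higher when the TPM were rescaled without mitochondrial genes and with sample weights. In the V1 sector, log2 fold changes ran from -0.34 (*Atp6v1e1*) to 0.28 (*Atp6v1d*), with *Atp6v1a*, *Atp6v1b2* and *Atp6v1f* within 0.03 of 0. Summed over the 13 subunits, the level was 746.9 ± 26.4 TPM in WT and 715.1 ± 44.2 TPM in null libraries (SD, n = 4).

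**Figure D4:**
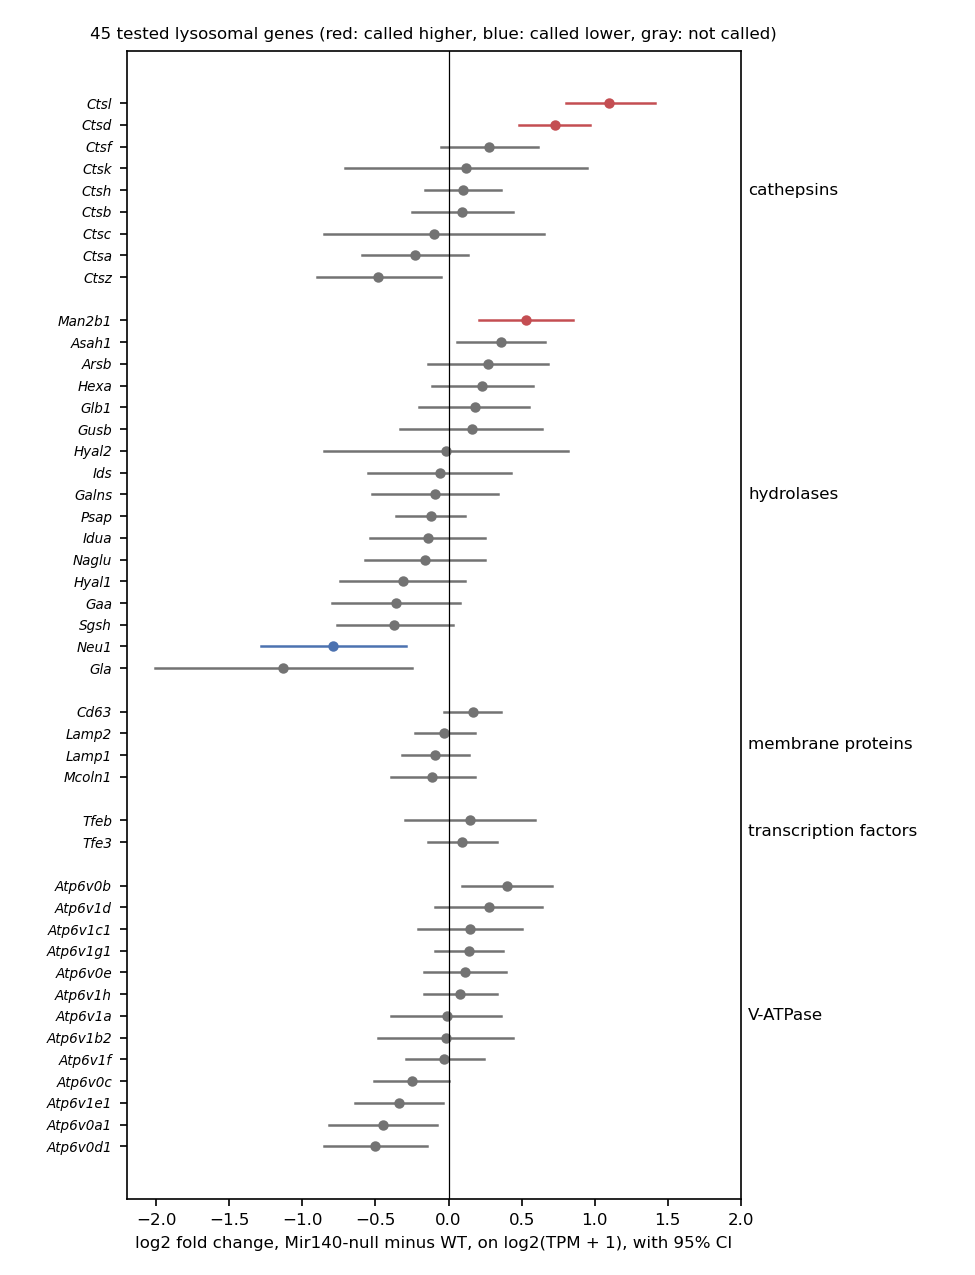
Log2 fold change (null minus WT, on log2(TPM + 1)) of the 45 tested lysosomal genes with 95% confidence intervals, by class, with called genes in red (higher) and blue (lower). Most intervals include 0, and *Ctsl* and *Ctsd* lie farthest to the right.

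The other genes of the pathway were taken from 7 lists by role. Of the 109 genes, 102 were tested, 10 were called higher and 1 lower (10.8%), against 16.9% of all genes, and the median log2 fold change was 0.03. Of the 11 genes of enzyme sorting, 3 were called (27.3%, against 16.9% of all genes), and the difference was not tested. *M6pr*, the small mannose phosphate receptor, was measured at 13.1, 13.3, 14.1 and 15.6 TPM in WT and at 29.9, 24.9, 21.3 and 20.3 TPM in null replicates 1 to 4, and had a log2 fold change of 0.73 (limma with Benjamini-Hochberg adjusted p = 0.0158). *Scarb2*, a membrane receptor for enzyme transport, went from 15.2 ± 1.40 to 24.8 ± 1.81 TPM (SD, n = 4), with a log2 fold change of 0.67 (limma with Benjamini-Hochberg adjusted p = 0.00983). *Gnptab*, which makes the mannose phosphate tag, went from 6.10 ± 0.937 to 9.65 ± 1.38 TPM (SD, n = 4), with a log2 fold change of 0.58 (limma with Benjamini-Hochberg adjusted p = 0.0346). The call of *Gnptab* was lost when any single library other than null replicate 1 was left out. All 3 genes were higher in each null library than in any WT library. Groups did not overlap in 3 of the 11 sorting genes, beside 25.9% of all genes. *Igf2r*, the other mannose phosphate receptor, went the other way, from 74.8 ± 15.1 to 50.8 ± 15.4 TPM (SD, n = 4), with overlap and a log2 fold change of -0.58 (limma with Benjamini-Hochberg adjusted p = 0.150). The other 7 sorting genes were not called either, and the median log2 fold change of the 11 was 0.04.

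Among the other lysosomal enzymes 2 of 29 were called (6.90%, against 16.9% of all genes), the sulfatase *Arsa* (11.8 ± 0.494 to 16.3 ± 0.630 TPM) and the carboxypeptidase *Scpep1* (54.8 ± 3.30 to 69.7 ± 5.77 TPM), both higher in the null libraries (SD, n = 4). The call of *Scpep1* did not survive the omission of any single library (limma with Benjamini-Hochberg adjusted p of 0.0525 to 0.110). *Lipa*, *Ctsw* and *Sort1* are on the study's list of miR-140-3p.1 targets, which was predicted for human genes. In these mouse libraries they had log2 fold changes of -0.20, 0.17 and -0.06, and none of the 3 was called in limma. Matches in their mouse 3'UTRs are not given here. *Lipa*, the acid lipase, was at 3.11 ± 0.611 TPM in WT and 2.67 ± 1.11 TPM in null libraries (SD, n = 4).

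*Cstb*, a cytosolic inhibitor of cathepsins including cathepsin L, was measured at 89.2, 113.7, 108.5 and 102.3 TPM in WT and at 162.7, 142.1, 143.0 and 144.1 TPM in null replicates 1 to 4. The groups did not overlap, and its log2 fold change was 0.52 (limma with Benjamini-Hochberg adjusted p = 0.0171). Any link to the values of *Ctsl* was not tested. The secreted inhibitor *Cst3* was not called, at -0.13. Among the other lysosomal membrane proteins, 3 of 15 were called (20%, against 16.9% of all genes). The cholesterol transporter *Npc1* (20.9 ± 4.08 to 33.5 ± 4.79 TPM) and the cation channel *Tpcn2* (10.9 ± 1.21 to 17.7 ± 2.07 TPM) were called higher (SD, n = 4). The call of *Npc1* was lost when any single library other than null replicate 3 was left out, while that of *Tpcn2* held in each omission. *Ostm1*, which pairs with the chloride transporter *Clcn7*, was called lower, from 7.38, 7.12, 6.87 and 7.92 TPM in WT to 1.18, 1.996, 4.65 and 4.49 TPM in null replicates 1 to 4, a log2 fold change of -1.14 (limma with Benjamini-Hochberg adjusted p = 0.0397). Null replicates 1 and 2 were its lowest libraries, and without them its log2 fold change was -0.58.

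*Sqstm1*, the autophagy receptor p62, was the most abundant gene of these lists, at 2659.5, 2099.4, 1931.5 and 2256.7 TPM in WT and 5128.1, 4414.9, 2909.7 and 3366.4 TPM in null replicates 1 to 4. All null libraries were above all WT libraries, by a log2 fold change of 0.80 (limma with Benjamini-Hochberg adjusted p = 0.0291). *Wipi2*, which acts in autophagosome formation, was the other of 16 autophagy genes called, at 12.0 ± 1.17 and 18.1 ± 1.99 TPM (SD, n = 4). These 2 calls were 12.5% of the autophagy genes, against 16.9% of all genes. None of the 14 tested genes of nutrient sensing (limma, 1 with an unadjusted p under 0.05) and none of the 15 tested other V-ATPase genes (limma, 5 with an unadjusted p under 0.05, or 33.3%, beside 33.9% of all genes tested) was called. *Tcirg1*, the a3 subunit of the osteoclast pump, was at 21.9 ± 1.70 TPM in WT and 16.9 ± 2.66 TPM in null libraries (SD, n = 4), with a log2 fold change of -0.37 (limma with Benjamini-Hochberg adjusted p = 0.0994). Without null replicates 1 and 2, none of these 11 calls was kept and *Atp6ap1* alone was called, while 3.76% of all genes were. The log2 fold changes of *Scarb2*, *Gnptab*, *Arsa* and *Cstb* were then 0.68, 0.73, 0.44 and 0.48, beside 0.67, 0.58, 0.44 and 0.52 with all libraries. Those of *M6pr*, *Sqstm1*, *Npc1*, *Tpcn2*, *Wipi2* and *Scpep1* were 0.54, 0.49, 0.55, 0.57, 0.49 and 0.29, beside 0.73, 0.80, 0.67, 0.66, 0.56 and 0.34.

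**Figure D5:**
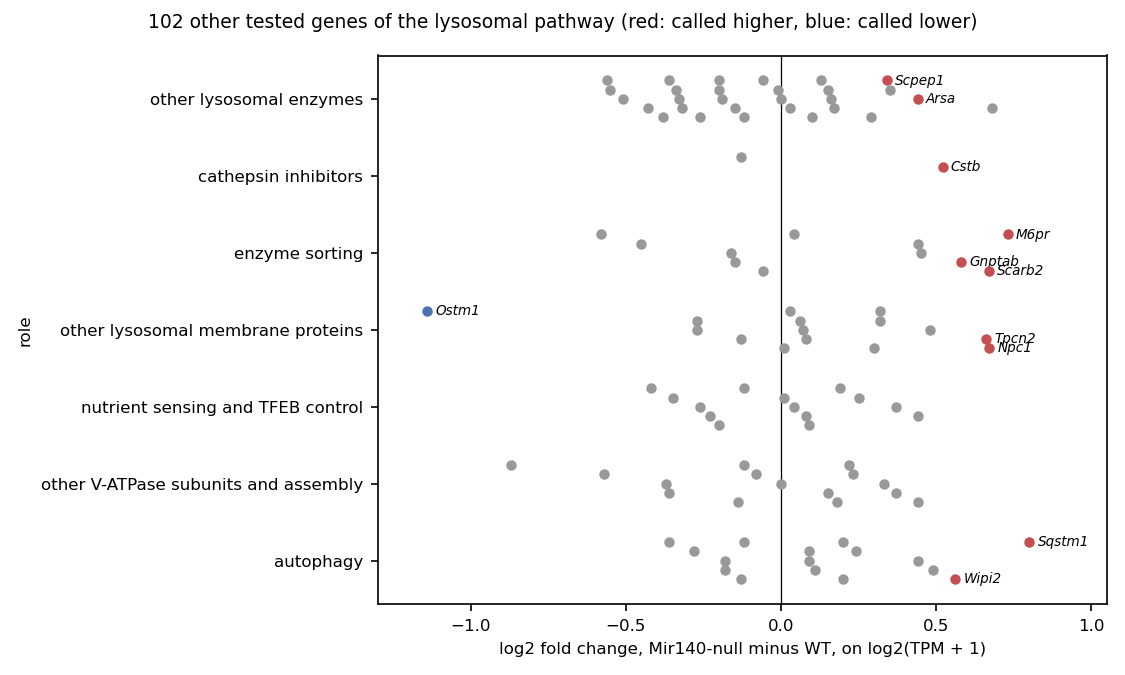
Log2 fold change (null minus WT, on log2(TPM + 1)) of the 102 other tested genes of the pathway, 1 point per gene, in rows by role, with called genes named. *Ostm1* is the called gene on the left, and the 10 called genes on the right lie between 0.34 (*Scpep1*) and 0.80 (*Sqstm1*).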

How the data were processed

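The authors mapped single-end reads of stranded poly(A) libraries to the mm10 transcriptome with Salmon, and TPM per Ensembl gene were deposited. The submitters' processing notes name FastQC 0.11.7, Salmon and DESeq2, and the Salmon version is not given in the sources used here. The authors' later factors of unwanted variation are not in the deposited TPM. Identifiers listed on several lines were counted once, and GENCODE M21 gave symbols and positions. Testing was done on log2(TPM + 1) with limma 3.58.1 (R 4.3.3) for genes that reached 0.5 TPM in 4 or more libraries, with a mean-variance trend, two-sided, with genotype as the term. The p-values were adjusted over all tested genes by the Benjamini-Hochberg method and genes under 0.05 were called. The log2 fold change understates changes of low genes. The fit was checked on simulated data, where it called 105 of 200 changed genes and 3 others. The simulated noise was independent, with no effect shared by the genes of a library, so this does not show how the fit does here. Other steps used Python 3.11.15, NumPy 2.4.6, pandas 2.3.3 and matplotlib 3.10.9.

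The members and the lists of other genes were chosen with earlier results of these data known. Values in every library were given for the called members, the member with the highest mean TPM and the one with the largest absolute log2 fold change in each class, *Tfeb*, *Tfe3*, *Lamp2* and *Ctsk*. Of the other pathway genes, up to 3 called genes per role, *Lipa*, *Tcirg1* and predicted targets were named, and some items are not reported here. Other genes, such as *Asah1*, *Ctsz*, *Atp6v0a1*, *Atp6v0b*, *Igf2r* and *Cst3*, were named after their values were seen. Marker lists of osteoblasts, muscle, endothelium and red cells were also examined. Their summed TPM were 9.42 to 16.9 in WT and 3.02 to 14.1 in null libraries (5 osteoblast genes, most abundant *Bglap*), 61.1 to 96.3 and 33.5 to 57.3 (5 muscle genes, *Tnnt3*), 4.22 to 17.7 and 2.82 to 23.0 (4 endothelial genes, *Pecam1*), and 403.3 to 1089.4 and 168.0 to 1150.5 (4 red cell genes, *Hbb-bs*). None of these genes was called.

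The alternatives were a pseudocount of 0.1, no filter, a mean of at least 5 TPM, median-ratio scaling, rescaling without mitochondrial genes, replicate number as a block, 1 factor from residuals, sample weights and each library left out. Leaving out null replicates 1 and 2 together and summing *Ctsd* with *Gm49369* were chosen after seeing the data.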

Additional observations from a re-analysis of the deposited data

Results flagged for a closer look

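In 6 of the 134 groups of 4 libraries examined, 1 library lay far from the other 3, and chance alone gives such a library in about 1 in 20 groups. *Ctsb* was at 130.6 TPM in WT replicate 1, against 168.0 to 170.2 TPM in the other WT libraries. *Npc1* was at 14.8 TPM in the same library, against 22.4 to 23.4 TPM in the others. *Hyal1* was at 2.48 TPM in WT replicate 3, against 2.04 to 2.11 TPM, and *Atp6v1g1* at 46.1 TPM in WT replicate 4, against 40.0 to 40.5 TPM. Null replicate 1 stood apart for *Cstb* at 162.7 TPM, against 142.1 to 144.1 TPM, and for *Wipi2* at 21.1 TPM, against 17.0 to 17.3 TPM.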

How the results depend on the processing

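With 4 libraries per genotype, known by their labels, TPM without counts and null replicates 1 and 2 apart in markers of several cell types, calls near the threshold were unstable. *Ctsl* and *Ctsd* were called under every alternative run.

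The counts called higher, lower and in both directions were 3, 1 and 4 for members, 10, 1 and 11 for pathway genes and 1797, 1100 and 2897 for all genes. With a pseudocount of 0.1, 0 pathway genes were lower. With no filter, 0 members were lower and 2 called, 6 pathway genes were higher, 0 lower and 6 called, and 977 genes were higher, 539 lower and 1516 called. At a mean of at least 5 TPM, 2 members, 3 pathway genes and 605 genes were lower. With median-ratio scaling, 4 members were lower and 7 called, and 4 pathway genes were lower. With 1 factor from residuals, 4 members were lower and 8 called, 7 pathway genes lower and 22 called, and 2016 genes lower and 4476 called. With sample weights, 5 members were higher and 0 lower. Leaving out null replicates 1 and 2 together, 0 members were lower, 1 pathway gene was higher, 0 lower and 1 called, and 386 genes were higher, 234 lower and 620 called.

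With replicate number as a block, 0 members were lower and 2 called, and 3 pathway genes were higher, 0 lower and 3 called. Of all genes, 671 were higher, 454 lower and 1125 called. This fit called 0 of 200 changed genes in simulated data. Those data had no shared effects of replicate or library, so they cannot judge the fit here. Same-number correlations were 0.0308, 0.016, 0.0688 and -0.00911, and not every library correlated best with its own number.

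Leaving out single libraries, members called ranged from 2 to 3 higher, 0 to 2 lower and 2 to 4 in both directions, pathway genes from 4 to 8, 0 to 3 and 4 to 11, and all genes from 755 to 1551, 337 to 1251 and 1164 to 2802. *Neu1* lost its call without each of WT replicates 1, 2, 3 and 4 and null replicates 1, 2, 3 and 4, and *Man2b1* without each of these but null replicate 1. *Atp6v0b* was gained without WT replicate 1, *Atp6v0d1* and *Gla* without null replicate 3 and *Atp6v0a1* without null replicate 4. Of the pathway calls, *Scpep1* was lost in all 8 omissions, *Gnptab* in all but null replicate 1, *Npc1* in all but null replicate 3, *Ostm1* in all but null replicates 3 and 4, *Sqstm1* without WT replicates 2, 3 and 4 and null replicates 1 and 2, *Arsa* without WT replicates 2, 3 and 4 and null replicate 2, *Wipi2* without WT replicate 3 and null replicate 2, and *Cstb* without WT replicate 4. With no filter, *Sqstm1*, *Scpep1*, *Npc1*, *Gnptab*, *Ostm1*, *Man2b1* and *Neu1* were also lost. Median-ratio scaling lost *Sqstm1*, *Scpep1* and *Npc1*, a pseudocount of 0.1 lost *Ostm1*, and sample weights lost *Neu1*. The replicate block lost *Man2b1*, *Neu1* and all pathway calls but those of *Sqstm1*, *Scarb2* and *Tpcn2*. *Lamp2* turned to 0.03 without mitochondrial genes, 0.01 without WT replicate 2, 0.01 without null replicate 2 and 0.02 without null replicates 1 and 2. *Ctsk* turned to -0.07 without WT replicate 2, -0.11 without null replicate 3 and -0.02 without null replicate 4, with a range of -0.11 to 0.33 over single omissions.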
